A study of Mus musculus with 4 samples.

Results

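Extracellular proteolysis was described in mouse embryonic stem (ES) cells through 9 genes: the plasminogen activators Plat and Plau, the urokinase receptor Plaur, the secreted peptidase Htra1, the serpins Serping1 and Serpine2, and the metalloproteinase inhibitors Timp1, Timp2 and Timp3. The genes were listed by name with earlier results of these data known, so counts over them describe the list and are no independent test. Each probe set whose only gene symbol was one of them was taken as a member. This gave 19 probe sets of 45037 on the array that were not controls, and 8 of the 9 genes, out of 18193 genes with a named probe set. Serpine2 had no probe set named for it in the annotation used and has no value here. The study compared ES cells null for SOCS3, an intracellular brake on cytokine receptors that signal by way of JAK kinases and STAT3, with wildtype ES cells, on 2 arrays of total RNA per genotype. The labels give no culture condition, clone, passage or targeting strategy, and separate cultures are not stated for the 2 arrays of a genotype. The p-values thus rest on array-to-array spread that may be technical in origin.

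Plasminogen activators are secreted serine proteases that cut plasminogen into plasmin, a protease of broad specificity that degrades fibrin and matrix proteins. Tissue-type activator (Plat) works mainly on fibrin and cell surfaces, and urokinase (Plau) works on the cell surface when bound to its receptor (Plaur). Serpins trap serine proteases in a covalent complex, while TIMPs block the active site of matrix metalloproteinases. In the mouse embryo, plasminogen activator is a known product of the extraembryonic endoderm, where it is secreted alongside the basement membrane.

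In SOCS3 null cells Htra1, Serping1, Plaur and Plat rose, with ratios of mean intensities of 18.0 and 14.4 for the probe sets of Htra1, 22.6 for Serping1, 8.18 for Plaur and 3.73 for Plat. Plau lay below the median of each array in both genotypes. Timp1 was 2.56 times as bright in SOCS3 null cells but did not pass the test, and neither did any probe set of Timp2 or Timp3. Of the 19 member probe sets, 15 passed a filter on dim values (mean of log2(intensity + 16) over the 4 arrays at or above the 40th percentile, an intensity near 10.4). The wildtype mean of each of these 15 lay above that floor, which is 4.72 on the log2 scale. Among them, 5 were called higher in SOCS3 null cells at a Benjamini-Hochberg adjusted p under 0.05 in limma, and 0 were called lower. Over all 27022 probe sets tested, 8.55% were called higher, 7.3% lower and 15.9% in either direction. Both SOCS3 null arrays lay above both wildtype arrays for 9 of the 15, against 27.2% of all probe sets tested, and below for 0 of the 15, against 34.8%. The median log2 change was 0.61 for the 15 and -0.02 for all probe sets tested. All changes are SOCS3 null minus wildtype on the log2(intensity + 16) scale.

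**Figure D1:**
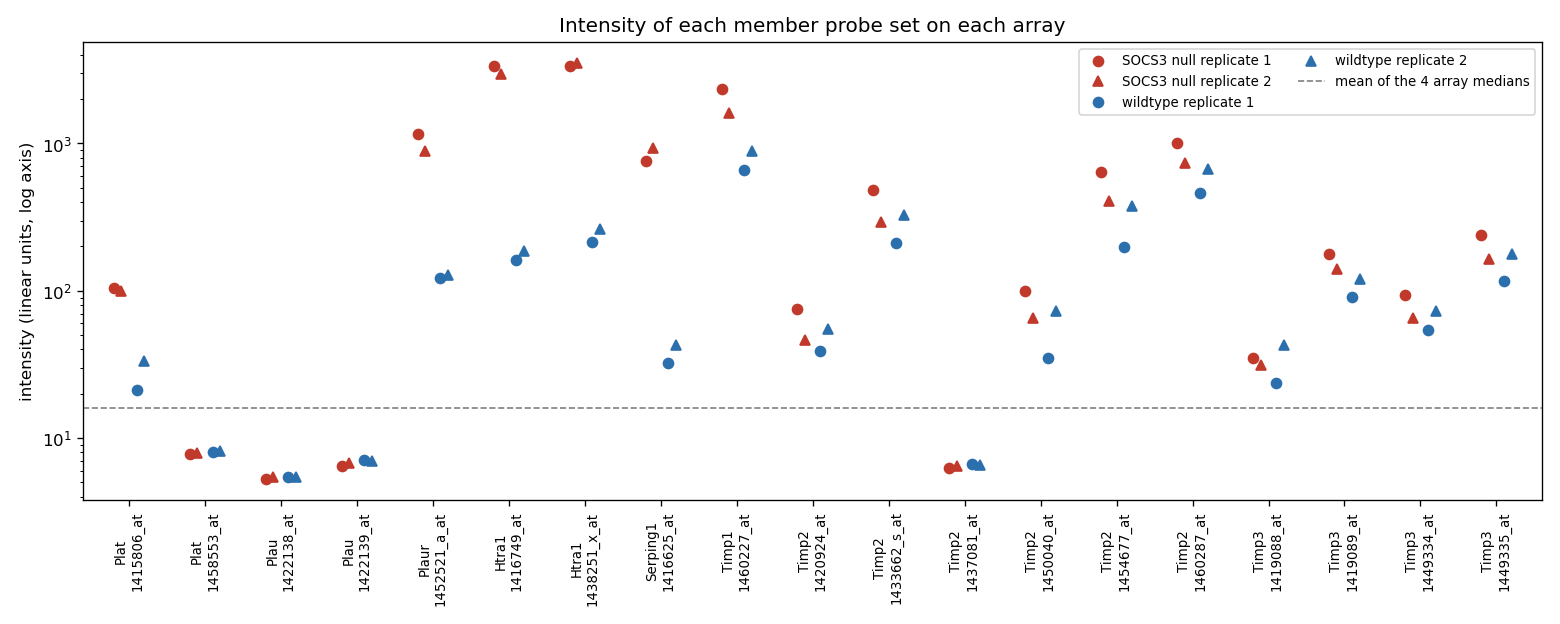
Intensity (log axis) of each of the 19 member probe sets on the 2 SOCS3 null arrays (red) and the 2 wildtype arrays (blue), with circles for replicate 1, triangles for replicate 2 and a dashed line at the mean of the 4 array medians. For Htra1, Serping1, Plaur and the upper probe set of Plat both red points stand well above both blue points, and both probe sets of Plau lie under the dashed line.

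The 75th percentiles of intensity were 119.8 and 119 on the SOCS3 null arrays, against 116 and 115 on the wildtype arrays. The targeted transcript checked the labels: Socs3 (brightest probe set 1455899_x_at) read 19.3 and 12.9 on the SOCS3 null arrays, against 3024 and 1884 on the wildtype arrays, a log2 change of -6.23 (SE 0.28, limma adjusted p = 0.00847). The other probe sets of Socs3, 1456212_x_at and 1416576_at, were also called lower, with smaller log2 changes of -4.87 and -4.15. Whether any of these probe sets lies in the removed part of the gene is not known from the labels. With any 1 array left out limma called 0 of the 27022 probe sets, members and Socs3 included, while 5699 to 8535 had an unadjusted p under 0.05. Such a fit leaves 1 array in a genotype, whose spread is then taken from the other genotype's pair, so a lost call says nothing about a single member; only the sizes of the changes are given from these fits.

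The promoter windows of the members that rose or came nearest to the threshold are shown first, as far as the RefSeq table (build GRCm38.p6) holds them; Plat, Plau and Serping1 have no entry in it. Each is the 250 bases before the start that the table gives, and the Plaur window lies inside the gene's annotated span. Capitals mark matches, on either strand, to 5 motifs: AGATAA and TGATAA for GATA factors, TGANTCA for AP-1, TTCNNNGAA for STAT factors and GGGCGG for SP1. Matches of a motif to itself were allowed to overlap.
Plaur (chr7:24462233-24462482, plus strand): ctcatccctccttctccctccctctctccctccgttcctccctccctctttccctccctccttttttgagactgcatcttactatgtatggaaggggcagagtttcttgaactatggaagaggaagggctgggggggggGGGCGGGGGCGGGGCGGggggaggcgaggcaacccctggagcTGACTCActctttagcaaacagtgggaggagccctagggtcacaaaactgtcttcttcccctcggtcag
Htra1 (chr7:130935953-130936202, plus strand): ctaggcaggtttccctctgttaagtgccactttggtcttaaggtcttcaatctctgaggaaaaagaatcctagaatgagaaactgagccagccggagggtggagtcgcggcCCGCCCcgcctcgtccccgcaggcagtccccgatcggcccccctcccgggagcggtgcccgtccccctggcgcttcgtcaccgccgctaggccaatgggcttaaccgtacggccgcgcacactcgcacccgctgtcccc
Timp1 (chrX:20869916-20870165, plus strand): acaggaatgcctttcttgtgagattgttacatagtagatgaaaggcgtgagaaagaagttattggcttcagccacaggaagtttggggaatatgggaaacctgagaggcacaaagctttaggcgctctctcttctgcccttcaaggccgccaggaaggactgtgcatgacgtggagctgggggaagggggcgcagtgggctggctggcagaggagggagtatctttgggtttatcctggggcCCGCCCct
The window of Plaur held 1 AP-1 match, TGACTCA, beginning 69 bases before the start, and 3 SP1 matches beginning 111, 105 and 100 bases before it. Over all 32851 windows of this length, 6.75% held an AP-1 match and 32.7% an SP1 match. The windows of Htra1 and Timp1 each held 1 SP1 match, and those of Timp2 and Timp3 also 1 each. The window of Serpine2, a gene with no value here, held 6 SP1 matches. None of these 6 windows held a GATA or STAT match, against 9.99% and 7.94% of all windows for the GATA motifs and 7.02% for the STAT motif. A match is a run of letters and not a shown binding site, and its absence from 250 bases says nothing of the factor.

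Among the activators, Plat (chr8:22757722-22782848) encodes tissue-type plasminogen activator. Its probe set 1415806_at read 104 and 99.7 on the SOCS3 null arrays, against 21.3 and 33.2 on the wildtype arrays. Both SOCS3 null values were higher than both wildtype values, and the wildtype arrays differed more between themselves than the SOCS3 null arrays did. The means were 102 ± 2.83 in SOCS3 null and 27.2 ± 8.41 in wildtype cells (SD, n = 2 each), a log2 change of 1.46 (SE 0.16, 95% interval 0.99 to 1.92, limma adjusted p = 0.0202). The wildtype level is near the array median, so the size depends on the pseudocount: the change was 0.86 with a pseudocount of 64 and 1.89 with 1. The call was lost without the filter on dim probe sets (adjusted p = 0.0715). The second probe set of Plat, 1458553_at, lay below the filter, with 7.86 ± 0.129 in SOCS3 null and 8.08 ± 0.0798 in wildtype cells (SD, n = 2 each), and was not tested.

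Plau (chr14:20836662-20843388) encodes urokinase. Its probe sets read 5.28 and 5.45 (1422138_at) and 6.49 and 6.77 (1422139_at) on the SOCS3 null arrays, against 5.47 and 5.45, and 7.13 and 6.99, on the wildtype arrays. All 8 values lie below the array medians, the lowest of which is an intensity of 15.8, and both probe sets fell below the filter. In the fit without the filter their adjusted p were 0.825 and 0.527. No detection call was used here, so these values are dim, and are not evidence that the transcript is absent.

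Plaur (chr7:24460937-24475970), the GPI-anchored receptor that holds urokinase at the cell surface, has 1 probe set (1452521_a_at), which read 1160 and 886 on the SOCS3 null arrays, against 122 and 128 on the wildtype arrays. The groups did not overlap, and the lower SOCS3 null value was several times the higher wildtype value. The means were 1023 ± 194 in SOCS3 null and 125 ± 4.67 in wildtype cells (SD, n = 2 each), and the log2 change was 2.87 (SE 0.16, 95% interval 2.42 to 3.32, limma adjusted p = 0.00935). It was called in all 12 alternatives that used all 4 arrays, with changes of 2.51 to 3.01.

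Htra1 (chr7:130936203-130985658), a secreted serine peptidase that cleaves matrix proteins and can act on TGF-beta family signalling, had 2 probe sets. The probe set 1416749_at read 3341 and 2954 on the SOCS3 null arrays, against 162 and 187 on the wildtype arrays. The second, 1438251_x_at, read 3366 and 3508 in SOCS3 null and 215 and 263 in wildtype cells; the suffix x marks probes that may match other transcripts. Both moved the same way by a like amount, with no overlap between genotypes. The log2 changes were 4.05 (SE 0.12, 95% interval 3.72 to 4.39) and 3.77 (SE 0.12, 95% interval 3.42 to 4.12), each with a limma adjusted p of 0.0071. With any 1 array left out they were 3.96 to 4.15 and 3.63 to 3.90.

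The serpin Serping1 (chr2:84765360-84775444) encodes C1 inhibitor, which inactivates the complement proteases C1r and C1s, plasma kallikrein and factor XIIa. Its probe set 1416625_at read 757 and 939 on the SOCS3 null arrays, against 32.2 and 42.9 on the wildtype arrays. The genotypes were far apart, at 848 ± 129 in SOCS3 null and 37.5 ± 7.53 in wildtype cells (SD, n = 2 each). The log2 change was 4.01 (SE 0.17, 95% interval 3.53 to 4.49, limma adjusted p = 0.00819), and ran from 3.16 with a pseudocount of 64 to 4.47 with a pseudocount of 1.

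**Figure D2:**
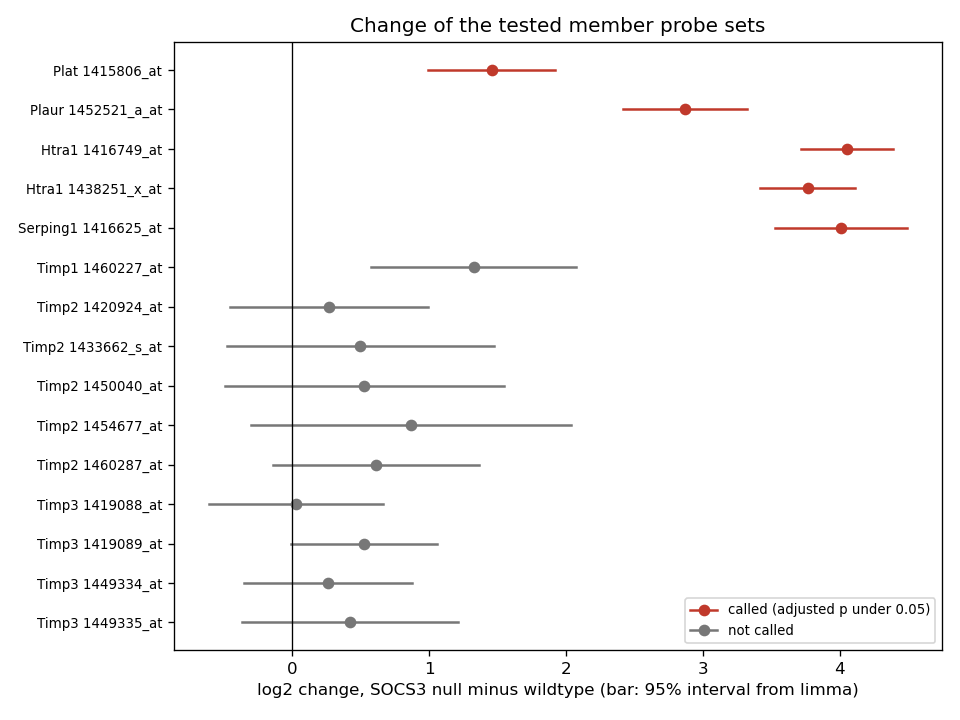
Log2 change, SOCS3 null minus wildtype, of the 15 tested member probe sets, with 95% intervals from limma; red marks those called at an adjusted p under 0.05. The intervals of Plat, Plaur, Htra1 and Serping1 lie above 0.99, while those of Timp2 and Timp3 all include 0.

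The TIMPs inhibit matrix metalloproteinases, and Timp3 also binds to the matrix itself. Timp1 (chrX:20870166-20874737; probe set 1460227_at) read 2353 and 1613 on the SOCS3 null arrays, against 660.0 and 892 on the wildtype arrays. The groups did not overlap, but both spread widely. The log2 change was 1.33 (SE 0.26, 95% interval 0.58 to 2.08), with a limma adjusted p of 0.0526, just outside the threshold, and an unadjusted p of 0.00869. It was called in 8 of the 12 alternatives that used all 4 arrays, 1 of which was chosen after seeing the data, among them a pseudocount of 1 (adjusted p = 0.0487), median centring (0.0487), the stricter filter (0.0145) and 1 probe set per gene (0.0388). It was not called with a pseudocount of 64, quantile normalization, no filter or the replicate number as a block, where the adjusted p were 0.0714, 0.0507, 0.161 and 0.0961.

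Timp2 (chr11:118301061-118355411) had 6 probe sets, of which 5 were tested. The brightest, 1460287_at, read 1014 and 737 on the SOCS3 null arrays, against 464 and 674 on the wildtype arrays. The higher wildtype value came close to the lower SOCS3 null value, and the log2 change was 0.61 (SE 0.26, 95% interval -0.14 to 1.37, limma adjusted p = 0.211), or 0.35 to 0.87 with 1 array left out. The probe set 1454677_at read 643 and 408 in SOCS3 null and 197 and 379 in wildtype cells, with a change of 0.87 (SE 0.41, 95% interval -0.30 to 2.03), or 0.42 to 1.31 with 1 array left out. Both were called with the crossed replicate pairing, chosen after seeing the data (adjusted p = 0.0440 for 1460287_at and 0.0365 for 1454677_at), and in none of the other alternatives. For 1433662_s_at, 1450040_at and 1420924_at the genotypes overlapped, with changes of 0.50, 0.53 and 0.27. With 1 array left out these ran from 0.15 to 0.85, from 0.13 to 0.93 and from -0.0065 to 0.54. The remaining probe set, 1437081_at, lay below the filter at 6.35 ± 0.151 in SOCS3 null and 6.61 ± 0.0625 in wildtype cells (SD, n = 2 each).

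Timp3 (chr10:86300412-86349505) had 4 tested probe sets. The brightest, 1449335_at, read 239 and 165 on the SOCS3 null arrays, against 117 and 177 on the wildtype arrays, so the genotypes overlapped, and its change was 0.42 (SE 0.28, 95% interval -0.37 to 1.21, limma adjusted p = 0.379). For 1419089_at, which read 177 and 140 in SOCS3 null and 90.4 and 121 in wildtype cells, they did not overlap, and the change was 0.52 (SE 0.19, 95% interval -0.01 to 1.06, limma adjusted p = 0.153). The probe sets 1449334_at and 1419088_at had changes of 0.26 and 0.02. Over the 9 tested probe sets of Timp2 and Timp3 the changes ran from 0.02 to 0.87 and the adjusted p from 0.153 to 0.96. With 1 array left out 1449335_at ran from 0.15 to 0.69 and 1419089_at from 0.34 to 0.71. Each of the 9 changes was smaller without SOCS3 null replicate 1 or wildtype replicate 1 and larger without either of the others. The upper bounds of the intervals reached 2.03, and those of 4 Timp2 probe sets lay above the 1.33 measured for Timp1.

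The TIMPs shared an order of arrays that the genotype does not give. In all 10 tested probe sets of Timp1, Timp2 and Timp3 the first SOCS3 null replicate lay above the second and the first wildtype replicate lay below the second. That order held for 23.7% of all probe sets tested. It also held for 16 of the 17 tested genes in a list of 20 fibroblast and feeder cell markers, of which 0 were called and whose median log2 change was 0.10. The summed intensity of the 19 markers with a probe set was 8627 and 5282 on the SOCS3 null arrays, against 4952 and 8453 on the wildtype arrays, so the genotypes overlapped. Among its brightest members Acta2, a smooth muscle actin, read 2137 and 1291 in SOCS3 null and 1155 and 2010 in wildtype cells, and S100a4, a calcium-binding protein, read 1230.0 and 881 in SOCS3 null and 884 and 1654 in wildtype cells. Lum and Fap of this list lay below the filter in both genotypes. In bulk RNA a different number of cells of a type and a different amount of RNA per cell cannot be told apart. The part of such cells in the TIMP values was not tested. In the other marker lists the order held for 5 of 10 tested ES cell and 4 of 7 macrophage and blood genes. It held for 2 of 5 endothelial, 5 of 21 endoderm and 0 of 5 trophoblast genes. In the pathway lists described below it held for 15 of 31 matrix peptidases, 6 of 12 other peptidase inhibitors and 4 of 9 other serpins. It also held for 4 of 12 plasminogen, 2 of 6 complement and 0 of 1 HTRA genes, against 23.0% of all genes tested. Among the 15 tested member probe sets the order held for 13, so it was not particular to the TIMPs. Plat, Plaur and Htra1 1416749_at had it, with SOCS3 null differences between replicates of 0.05, 0.38 and 0.18. Their wildtype differences were -0.40, -0.07 and -0.19, while those of Timp1 were 0.54 in SOCS3 null and -0.43 in wildtype cells. Htra1 1438251_x_at and Serping1 did not have the order, as both were higher on the second SOCS3 null array.

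**Figure D3:**
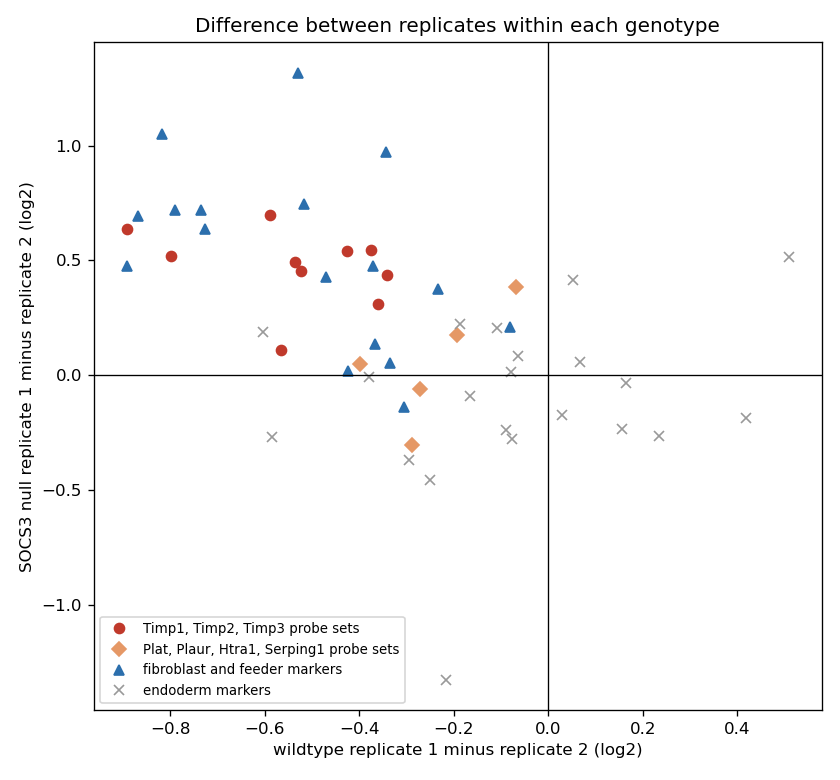
Difference between replicate 1 and replicate 2 on the log2 scale within wildtype (horizontal axis) and within SOCS3 null cells (vertical axis), for tested probe sets of the members and 1 probe set per marker gene. All 10 Timp probe sets and 16 of 17 fibroblast and feeder markers fall in the upper left field, against 5 of 21 endoderm markers.

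Markers of other cell types were measured beside the members, each gene through 1 probe set. Over all 12732 genes read in this way, 11.2% were called higher and 8.07% lower. Of 21 tested markers of the primitive and extraembryonic endoderm 17 were called higher and 0 lower, with a median log2 change of 3.58 and summed intensities of 62988 and 65774 on the SOCS3 null arrays, against 3826 and 4376 on the wildtype arrays; 3 of the 17 passed the filter only through the SOCS3 null arrays. The brightest were Sparc, a matrix glycoprotein, at 14535 and 14625 on the SOCS3 null arrays, against 1588 and 2070 on the wildtype arrays, and Lama1, a laminin chain, at 12157 and 11686 against 329 and 313. The rise did not cover the whole list: Thbd, Hnf4a, Apoa1 and Ttr were the 4 not called, with changes of 0.45, 0.12, -0.05 and -0.02. Hnf4a, Apoa1 and Ttr were dim in both genotypes, near the floor of the filter, and Afp lay below it. Of 10 ES cell markers 0 were called in either direction. On both SOCS3 null arrays 7 lay lower and 1 higher, against 34.8% and 27.2% of all probe sets tested. The median log2 change of the 10 was -0.33, with sums of 72390 and 68322 in SOCS3 null and 82877 and 83340 in wildtype cells. The pluripotency factor Sox2, named after its value was seen, read 2825 and 3940 on the SOCS3 null arrays, against 6372 and 7099 on the wildtype arrays (log2 change -1.01, limma adjusted p = 0.0515). Zfp42, also named after its value was seen, had the largest change of this list, -1.70 (limma adjusted p = 0.0896). It read 3502 and 1509 in SOCS3 null and 7657 and 7324 in wildtype cells. The changes of the brightest markers, Dppa5a and Tdgf1, were -0.03 and -0.30. Of 7 macrophage and blood markers Cd68 was called higher (230 ± 49.8 in SOCS3 null and 95.6 ± 7.43 in wildtype cells, SD, n = 2 each), and the summed intensity was 1912 and 872 on the SOCS3 null arrays, against 619 and 1037 on the wildtype arrays, with Lyz2, its brightest marker, at 1427 and 449 against 402 and 770. Ptprc and Hba-a1 lay below the filter. Of 5 endothelial markers 3 were called higher, 1 of them through the SOCS3 null arrays alone. They were Cdh5, Flt1 and Tek, while Pecam1 differed by 0.04, and the sums were 377 and 353 in SOCS3 null and 286 and 289 in wildtype cells. Of 5 tested trophoblast markers 4 lay higher on both SOCS3 null arrays, against 27.2% of all probe sets tested. None of these 4 was called, and the median log2 change over the 5 was 0.94. Among them Krt7 read 52.6 and 234 on the SOCS3 null arrays, against 26.4 and 25.7 on the wildtype arrays. The remaining one, Tfap2c, was called lower, at 468 and 506 in SOCS3 null and 955 and 1199 in wildtype cells. The trophoblast list summed to 704 and 1047 in SOCS3 null and 1066 and 1295 in wildtype cells. Tfap2c was its brightest marker on each array. The part of these cell types in the rise of the 4 called members was not tested.

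The rest of the proteolytic system was read from 6 lists with 120 genes in all, each gene through its tested probe set of the highest mean. Of the 110 with a probe set 71 passed the filter, of which 23 rose, 2 fell and 46 were not called. Over all 12732 genes read in the same way, 11.2% rose and 8.07% fell, and the median log2 change was 0.00, against 0.44 for the 71. None of the 25 called genes passed the filter only through the genotype where it was bright. Without the filter the counts were 10 higher and 1 lower.

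In the plasminogen list, 5 of 12 tested genes rose, 0 fell and 7 were not called, with a median log2 change of 0.61. Plasminogen itself (Plg), the substrate of both activators, lay below the filter at 6.58 ± 0.0992 in SOCS3 null and 6.37 ± 0.286 in wildtype cells (SD, n = 2 each). Anxa2 and S100a10, whose products form a cell-surface complex that binds plasminogen and tissue-type activator, rose by 1.68 and 1.65 (limma adjusted p = 0.0141 and 0.0134). S100a10 read 4954 and 4245 on the SOCS3 null arrays, against 1334 and 1566 on the wildtype arrays. St14, the membrane serine protease matriptase, rose by 1.27 (SE 0.07, limma adjusted p = 0.00972), and the integrin chain Itgav, part of receptors for vitronectin, by 1.17. Itgb1, named after its value was seen, rose by 0.62 (limma adjusted p = 0.0489). All 3 tested probe sets of S100a10 were called, but 1 of 2 for Anxa2 and 1 of 3 each for Itgav and Itgb1.

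Of 31 tested metalloproteinases and other matrix peptidases, 12 rose, 1 fell and 18 were not called, with a median of 0.73. Lysosomal cathepsins were the leading members by p: Ctsc rose by 2.56 (SE 0.09, limma adjusted p = 0.0073), Ctsl by 1.97 and Ctsz by 1.27. Ctsl read 13656 and 12816 on the SOCS3 null arrays, against 3245 and 3479 on the wildtype arrays, but its other tested probe set was not called. The membrane sheddase Adam10 rose by 1.95 in its brightest probe set, and all 3 of its probe sets were called. The gene that fell, Mmp11 (stromelysin 3), read 41.2 and 38.0 in SOCS3 null and 116 and 80.4 in wildtype cells (log2 change -1.02, limma adjusted p = 0.0442); it was named after its value was seen. The brightest probe set of Mmp14, a membrane protease that activates Mmp2 with the help of Timp2, differed by 0.74 (limma adjusted p = 0.178), while another of its 3 was called higher, and that of Mmp2 by -0.01 (0.983). Both were named after their values were seen.

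**Figure D4:**
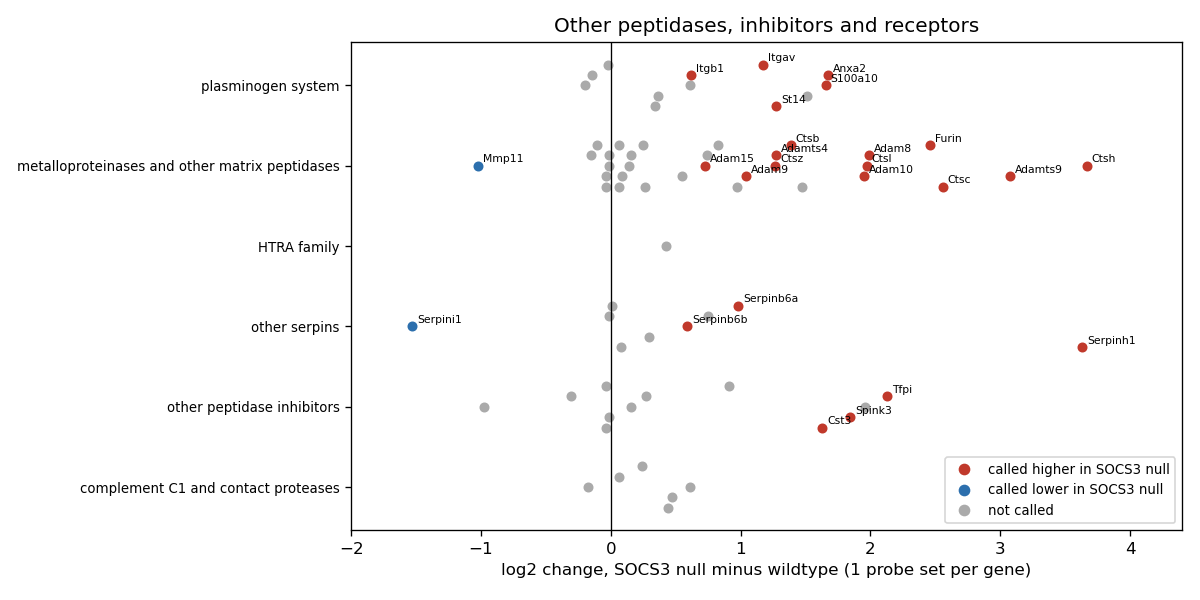
Log2 change, SOCS3 null minus wildtype, of the 71 tested genes in 6 lists of peptidases, inhibitors and receptors, 1 probe set per gene, with red for genes called higher, blue for genes called lower and grey for the rest. The vertical position within a list only spreads the points, and 23 red and 2 blue points are seen, the blue ones Serpini1 and Mmp11.

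Among 9 other serpins tested, 3 rose, 1 fell and 5 were not called. Serpinh1, a collagen chaperone in the endoplasmic reticulum without protease inhibition, rose by 3.63. The intracellular serpins Serpinb6a and Serpinb6b rose by 0.98 and 0.59 (limma adjusted p = 0.0207 and 0.0278). Serpini1, or neuroserpin, a secreted inhibitor of tissue-type plasminogen activator, read 23.0 and 18.7 on the SOCS3 null arrays, against 91.7 and 88.9 on the wildtype arrays. Its groups were far apart with little spread, and the log2 change was -1.53 (SE 0.09, 95% interval -1.79 to -1.27, limma adjusted p = 0.0104). Its second probe set was also called, with -1.11. The activator Plat was higher and this inhibitor lower on the same 2 SOCS3 null arrays.

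Of 12 other peptidase inhibitors tested 3 rose, 0 fell and 9 were not called. Cystatin C (Cst3), a secreted inhibitor of cathepsins, rose by 1.63 (SE 0.10, limma adjusted p = 0.0109). Tfpi, which inhibits tissue factor and factor Xa, rose by 2.13, with 6496 and 9909 on the SOCS3 null arrays, against 1773 and 1878 on the wildtype arrays, and all 4 of its probe sets were called. The trypsin inhibitor Spink3, listed in the files as Spink1, rose by 1.84 (limma adjusted p = 0.0453). Pcsk1n, an inhibitor of a prohormone convertase, differed by -0.97 (limma adjusted p = 0.0664). In the complement C1 and contact protease list 0 of 6 tested genes were called: the proteases C1s, C2 and Masp1 and the 3 chains of C1q, which is not a protease. The changes were 0.47 for C1s (listed as C1s1), 0.44 for C2, 0.61 for C1qa and -0.17 for C1qb. C1s was the only target of Serping1 named above that was tested in this list, in which C1ra and the contact protease F11 lay below the filter. The genes of plasma kallikrein (Klkb1) and factor XIIa (F12), read in the plasminogen list, also lay below it. Their means were 5.05 and 6.06 in SOCS3 null and 5.22 and 6.27 in wildtype cells, and both were named after their values were seen. Of the HTRA family Htra2, a mitochondrial protease, differed by 0.42 (limma adjusted p = 0.112), and Htra3 and Htra4 lay below the filter.

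The genes whose 4 log2 values, centred on their own mean, lay nearest to a member's were found by Euclidean distance. They were Cpne8 for Plat (distance 0.06), Slc7a6 for Plaur (0.10), Lrpap1 for Htra1 (0.17) and Klb for Serping1 (0.29). For the TIMPs they were Ccnd3 for Timp1 (0.03), Pmp22 for Timp2 (0.06) and Cdkn2b for Timp3 (0.06). The log2 changes between genotypes were 1.47 for Cpne8, 2.82 for Slc7a6, 3.70 for Lrpap1 and 4.28 for Klb. As the genes were picked on these same 4 values, a change like the member's follows from the choice and is no separate result.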

How the data were processed

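Total RNA of 2 SOCS3 null and 2 wildtype ES cell samples was measured on 4 arrays, grouped by the labels. The deposited table holds linear intensity for 45101 probe sets; how the authors summarised and normalized them is not given in the sources used here. Array medians were nearly equal, so the values were not normalized again. The 64 control probe sets were left out. A platform annotation gave 34945 probe sets 1 gene symbol, 932 several and 9160 none, and those with several or none were tested but not named. Gene IDs matched 34754 named probe sets to RefSeq (GRCm38.p6), with 0 symbols changed, and coordinates are from that table.

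log2(intensity + 16) was fitted with limma 3.58.1 in R 4.3.3 (lmFit and eBayes, genotype as the only term) over the 27022 probe sets at or above the 40th percentile of the mean. Calls are two-sided at a Benjamini-Hochberg adjusted p under 0.05 over all of them. The procedure was tested on 10 simulated sets of independent normal values with the spread taken from the fit. Such sets leave out any order shared between arrays, so they do not test the calls against it. The number of arrays limits the precision. The log2 scale with a pseudocount understates changes of dim probe sets.

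The members and gene lists were chosen with earlier results of these data known. Named genes were all member probe sets, Socs3, the 4 genes of smallest p in each list, the nearest gene to each member, and the brightest 2 markers of each cell type. Most others are marked or complete a count of 5 or fewer. Plg, the substrate of both activators, was named outside these rules. The alternatives tried were leaving out each array, the replicate number as a block, pseudocounts of 1 and 64, filtering at the 60th percentile or not at all, median centring, quantile normalization, a trend or robust trend in eBayes, and 1 probe set or the mean of probe sets per gene. Figures were drawn with matplotlib 3.10.9.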

Additional observations from a re-analysis of the deposited data

How the results depend on the processing

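With any 1 array left out, where the spread of the lone array is taken from the other genotype, the counts of called probe sets, of called members, and of pathway and marker genes called higher or lower were each 0, and the Socs3 change was -6.57 to -5.89 with no call. With all 4 arrays, 4 to 8 member probe sets were called higher and 0 lower. Htra1, Serping1, Plaur and Socs3 kept their calls in each alternative with all 4 arrays that could give a value, while Plat lost its call without the filter, Timp1 gained one in 8 of 12, and Timp2 (1460287_at and 1454677_at) gained one each with the crossed pairing alone. Among the members only Timp2 (1420924_at) and Timp3 (1419088_at) turned direction, to -0.0065 and -0.031 without SOCS3 null replicate 1, and Timp3 (1419088_at) to -0.26 without wildtype replicate 1, with ranges over the arrays left out of -0.0065 to 0.54 and -0.26 to 0.31; the cause was not tested.

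Of all probe sets 4283 were called, against 1733 without the filter, where more rows are tested. Pathway genes called higher were 23, and 10 without the filter. Those called lower were 2, and 1 with a pseudocount of 64, without the filter and with the replicate block. Markers called lower were 1, and 0 without the filter, 2 with median centring, either eBayes trend or 1 probe set per gene, and 3 with the stricter filter or the mean of probe sets; the additional ones were ES cell markers. The cause of these was not tested. With the replicate number as a block 1993 probe sets and 5 member probe sets were called. The replicate differences of the genotypes correlated at -0.12 over the tested probe sets, and with the crossed pairing, chosen after seeing the data, 3845 probe sets and 8 member probe sets were called. The same number does not show that arrays share a culture. No detection calls were used, so signal over background is unknown for dim probe sets.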
